A study of Mus musculus with 2 samples.

Results

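Terminal red cell maturation genes were described here at 8 loci, namely Xpo7, Alox15, Btg2, Foxo3, Tspan33, Tspan8, Ypel4 and Fam210b. They were listed by name, out of 21887 protein-coding genes on chromosomes 1 to 19, X and Y, of which 21536 had a known strand and so a 5' end. All 8 listed genes had one. The mark measured was trimethylation of histone H3 at lysine 4 (H3K4me3), profiled by chromatin immunoprecipitation and sequencing (ChIP-seq) in MEL cells, an immortalised mouse erythroleukaemia line. The series holds 1 group of 2 biological replicates, both of MEL cells treated with 2% dimethyl sulphoxide (DMSO) for 5 days. No value below is a change with DMSO, because untreated cells were not analysed here, and both replicates come from the same leukaemic line and not from primary erythroblasts. In a population of cells, a mark on fewer cells and less mark per cell cannot be told apart.

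In the last stages of red cell formation an erythroblast stops dividing, condenses and expels its nucleus, and then, as a reticulocyte, removes its mitochondria and ribosomes and reshapes its membrane. MEL cells treated with DMSO are a classical model of the start of this programme, since they make haemoglobin and stop dividing, although most of them do not expel the nucleus. H3K4me3 is laid down around the start sites of genes that are transcribed or poised for transcription, commonly as blocks of marked nucleosomes on either side of a start site that is itself free of nucleosomes, and most strongly at start sites rich in CpG dinucleotides. It does not measure RNA.

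The promoters of 3 of the 8 genes are printed first, because they differ widely in sequence and in how the mark lay on them: Foxo3 is rich in CpG dinucleotides and carried the broadest mark, Tspan8 is poor in them and well marked, and Ypel4 is the poorest and was weakly marked. Each is 300 bases long, 250 before the annotated start and 50 from it on, read 5′ to 3′ on the strand of the gene. That start is the 5' end used for the peaks at Foxo3, but at Tspan8 and Ypel4 it lies farther into the gene. Peak distances below run from the 5' end of the gene span, at 115816817 for Tspan8 and 84734011 for Ypel4. Capitals mark each CpG dinucleotide and each match to a GATA motif (the letters GATA with A or T before them and A or G after them, searched on both strands). They come from the RefSeq promoters of GRCm38.p6 (mm10), at chr10:115817034-115817333 on the plus strand for Tspan8, chr2:84733954-84734253 on the plus strand for Ypel4 and chr10:42276646-42276945 on the minus strand for Foxo3.
Foxo3: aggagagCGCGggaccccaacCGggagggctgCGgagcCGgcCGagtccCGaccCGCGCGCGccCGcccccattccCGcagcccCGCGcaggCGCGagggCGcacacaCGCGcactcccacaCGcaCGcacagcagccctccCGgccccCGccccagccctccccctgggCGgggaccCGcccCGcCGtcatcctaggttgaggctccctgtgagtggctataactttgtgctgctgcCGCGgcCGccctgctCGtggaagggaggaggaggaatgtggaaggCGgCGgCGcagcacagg
Tspan8: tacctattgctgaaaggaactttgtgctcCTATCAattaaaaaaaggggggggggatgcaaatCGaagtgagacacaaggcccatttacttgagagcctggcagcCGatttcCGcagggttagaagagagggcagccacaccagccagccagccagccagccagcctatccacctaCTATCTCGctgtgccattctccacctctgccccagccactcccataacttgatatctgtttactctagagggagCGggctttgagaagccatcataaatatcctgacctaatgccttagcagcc
Ypel4: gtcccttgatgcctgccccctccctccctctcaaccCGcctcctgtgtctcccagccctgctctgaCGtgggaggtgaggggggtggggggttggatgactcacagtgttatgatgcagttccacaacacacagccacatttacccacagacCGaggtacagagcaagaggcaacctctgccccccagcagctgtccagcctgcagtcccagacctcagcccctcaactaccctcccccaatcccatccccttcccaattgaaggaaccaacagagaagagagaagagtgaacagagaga

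RefSeq promoters were used for 6 of the 8 genes, and those of Xpo7 and Alox15 were not analysed here. Foxo3 held 35 CpG dinucleotides in its 300 bases, which placed it at percentile 90.9 of 21255 promoters of protein-coding genes, whose median was 13.0. Btg2 with 32, Fam210b with 24 and Tspan33 with 21 also lay above that median, at percentiles 87.4, 73.1 and 66.4. Tspan8 with 5 and Ypel4 with 3 lay below it, at percentiles 28.4 and 18.1. The 6 genes spanned promoters rich and poor in CpG. A GATA match was found in 1 of the 6 promoters, that of Tspan8, against 26.0% of all promoters with a match. There CTATCA began 221 bases and CTATCT 74 bases before the start in the printed promoter. The CACCC-type motif CCNCNCCC, a pattern bound by factors of the KLF and SP families, was found in 6 of 6 on either strand, against 56.6% of all promoters, and it overlaps itself in runs of G or C such as that of Tspan8. The FOXO core GTAAACA was found in 1 of 6, on the reverse strand 18 bases before the start in the Tspan8 promoter, against 3.01% of all promoters. A match describes these letters only and is not a binding site.

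Of the 8 genes, 6 carried a peak of both replicates within 1000 bp of the 5' end and are called marked below. Among all protein-coding genes with a strand, 10133 of 21536, or 47.1%, did so. The marked ones were Btg2, Foxo3, Tspan33, Tspan8, Ypel4 and Fam210b, and the unmarked ones were Xpo7 and Alox15. A peak of both replicates inside the gene but outside that window was found in 5 of the 8 (Xpo7, Alox15, Foxo3, Tspan33 and Ypel4), against 25.3% of all genes. Peaks of the replicates were not required to overlap each other. Peaks of both replicates inside the gene with no peak of either replicate at the 5' end were found in 2 of the 8 (Xpo7 and Alox15), against 9.78% of all genes. With 1 group of cells and genes listed with earlier results known, these counts were not tested.

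The level of the mark at a gene was taken as the highest enrichment value of its peaks, which is the authors' own value per peak and whose scale they do not state. The 6 marked genes had a median level of 15.8 (13.7 in replicate 1 and 16.4 in replicate 2), against 13.2 (12.3 in replicate 1 and 13.7 in replicate 2) over all 10133 marked genes. The median of the listed genes differed by more between replicates (SD 1.89) than that of all marked genes (SD 0.952). Of the 6, 4 lay above the median level of all marked genes, with Btg2 and Ypel4 below it. By mean level the order was Foxo3, Tspan33, Fam210b, Tspan8, Btg2 and Ypel4. The first 4 overlapped one another between replicates, both values of Btg2 lay just under theirs, and both values of Ypel4 lay far below. The domain width, the length of a run of peaks joined across gaps of up to 1000 bp, had a median of 3872 ± 8.84 bp in the 6 genes and 2258 ± 10.6 bp in all marked genes (SD of the replicates' medians, n = 2). Here too 4 of 6 lay above, namely Foxo3, Tspan33, Btg2 and Fam210b, with Tspan8 and Ypel4 below. The SD of the replicates' medians does not show the spread of single genes, such as Tspan33 with 10814 bp and 4120 bp.

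**Figure D1:**
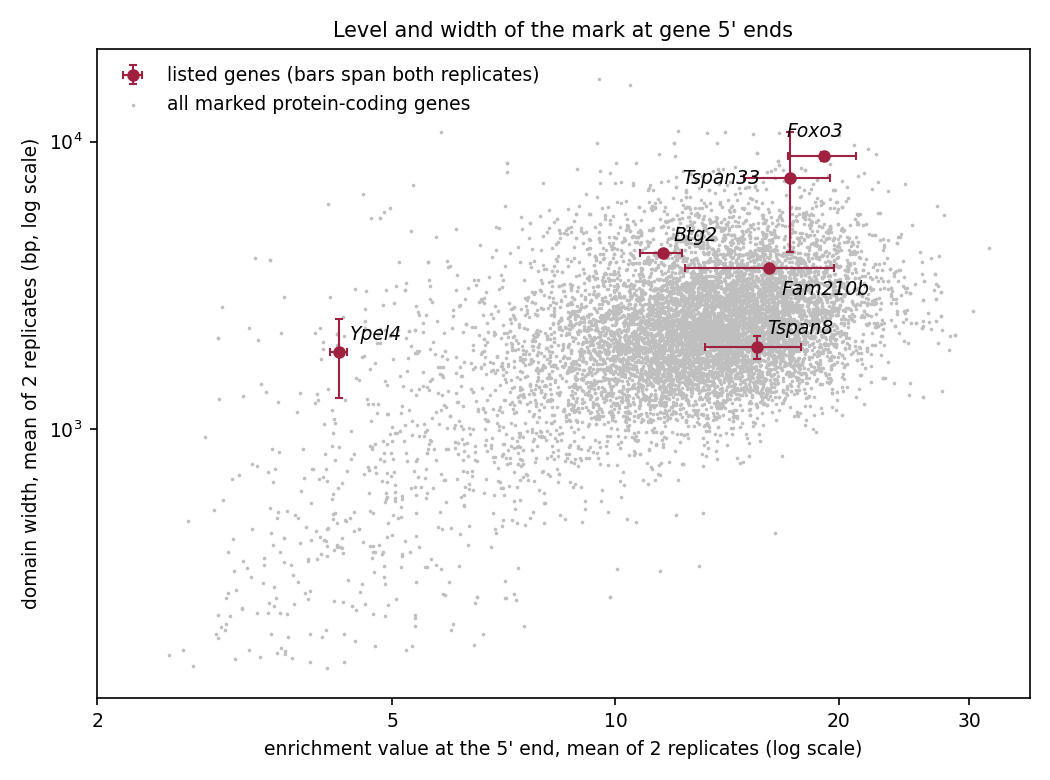
Enrichment value at the 5' end (x axis, log scale, no unit) against domain width (y axis, bp, log scale) for the 6 marked listed genes (red points, mean of 2 replicates, with bars that span both replicates) and all 10133 marked protein-coding genes (grey points). Foxo3 and Tspan33 sit at the upper edge of the grey points in width, and Ypel4 sits far to the left of the other listed genes, at 4.24.

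Foxo3, a forkhead transcription factor that drives genes of redox defence and of erythroid maturation, had the highest mean level and the widest mean domain of the listed genes. Its 5' end, on the minus strand of a gene at chr10:42181845-42276695 (mm10), carried 17.1 in replicate 1 and 21.1 in replicate 2 (19.1 ± 2.82, SD, n = 2), and its domain measured 8569 bp and 9232 bp (8900 ± 469 bp). That level lay at percentile 93.4 of the marked genes, and of the 10133 only 20 had a wider domain. The domain was lopsided, reaching 2141 bp and 2211 bp upstream of the 5' end and 6427 bp and 7020 bp into the gene. The peak that covered the 5' end was 5123 bp long in replicate 1 and 6356 bp in replicate 2, and a second peak of 9.92 and 15.0 lay upstream of it, across a gap of 204 bp and 61 bp that began 28 bp and 86 bp before the start. The 5' end of Gm38485, annotated inside Foxo3 on the same strand and 1886 bp from the 5' end of Foxo3, lay under the same peak, so the mark there cannot be assigned to either.

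Foxo3 also carried a separate cluster of weaker peaks deep inside the gene. In replicate 1 it held 5 peaks between 27467 bp and 30707 bp from the 5' end, the strongest at 5.37. In replicate 2 it held 6 peaks between 27535 bp and 31390 bp, the strongest at 4.33. The cluster thus lay in the same place in both replicates, at a level well under that of the 5' end. Peaks of both replicates inside the gene and outside the run of the 5' end were found in 3 of the 8 listed genes (Foxo3, Xpo7 and Alox15), against 20.9% of all genes.

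Btg2, an antiproliferative protein of the BTG/TOB family that binds the CCR4-NOT deadenylase, joined a level below the median with a wide domain. At chr1:134074865-134079155 on the minus strand, it carried 12.3 and 10.8 (11.6 ± 1.03), at percentile 31.6, and a domain of 4064 bp and 4130 bp (4097 ± 46.7 bp), with 937 of the 10133 marked genes wider. The replicates differed little in either measure. The domain covered most of this gene of 4291 bp, reaching 3164 bp and 3263 bp into it. No peak lay over the 5' end itself, which sat in a gap of 250 bp in replicate 1 and 200 bp in replicate 2 between an upstream peak (5.52 and 7.30) and the stronger downstream one.

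Tspan33 and Tspan8 encode tetraspanins, proteins that cross the membrane repeatedly and organise other membrane proteins into microdomains. Tspan33, also known as Penumbra, is needed for normal erythropoiesis in mice. At chr6:29694214-29718558 on the plus strand, it carried 14.9 and 19.5 (17.2 ± 3.20), at percentile 85.0. Its domain measured 10814 bp in replicate 1 but 4120 bp in replicate 2 (7467 ± 4733 bp), so the width was set by which weak peaks were called. In replicate 1 a chain of 8 weaker peaks from 29697839 to 29704235, the strongest at 6.42, joined the run. In replicate 2 the run ended at 29697516, and 9 peaks from 29699058 to 29704099, the strongest at 3.31, lay apart from it. Both replicates thus placed weak mark over the same part of the gene, whether or not it was joined to the 5' end. The authors' pooled set gave 10834 bp and their replicated set 4120 bp. The 5' end lay in a gap of 301 bp and 136 bp between an upstream peak (9.64 and 11.2) and the downstream one.

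Tspan8, better known from epithelia and from tumours of the gut, lay at chr10:115816817-115849893 on the plus strand. It carried 17.8 and 13.2 (15.5 ± 3.23), at percentile 73.5, on the promoter printed above with only 5 CpG dinucleotides. Its domain of 2108 bp and 1755 bp (1932 ± 250 bp), at percentile 34.9, was narrow beside those of Foxo3, Tspan33, Btg2 and Fam210b. A single peak covered its 5' end in both replicates, from 115816363 to 115818234 in replicate 1 and from 115816453 to 115818207 in replicate 2. With Foxo3 it was 1 of the 2 marked listed genes whose 5' end lay under a peak. In the other 4 (Btg2, Tspan33, Ypel4 and Fam210b) it lay under no peak of either replicate, against 35.7% of all marked genes. These counts use the 5' end of the gene span. The start in the printed Ypel4 promoter, farther into the gene, lay under a peak of 4.28 in replicate 1.

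Fam210b encodes a mitochondrial membrane protein that takes part in iron import for haem synthesis in differentiating erythroid cells. At chr2:172345570-172355749 on the plus strand, it carried 12.4 in replicate 1 and 19.7 in replicate 2 (16.1 ± 5.16), at percentile 77.6, the widest spread in level of the 6 marked genes. Its width was steady, at 3687 bp and 3606 bp (3646 ± 57.3 bp), with 1394 of the marked genes wider. In replicate 1 the downstream mark was called as a peak of 12.4 and a weaker one of 4.76, and in replicate 2 as 1 peak of 19.7 over about the same bases. The 5' end lay in a gap of 326 bp and 306 bp, with an upstream peak of 10.3 and 8.52.

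Ypel4, a member of the Yippee-like family that red cells of mice need for a normal amount of band 3 in the membrane, was the weakest of the marked listed genes. At chr2:84734011-84738655 on the plus strand, it carried 4.35 and 4.12 (4.24 ± 0.158), at percentile 1.53, with 9977 of the 10133 marked genes higher. Its level was 2.91 in the authors' pooled list and 2.71 in their replicated list, outside the range of the replicates. In replicate 1, 3 peaks lay within 1000 bp of the 5' end, the strongest 804 bp to 1179 bp downstream of it, and the peak of 4.28 at 62 bp to 323 bp overlapped the promoter printed above. In replicate 2 a single such peak lay 792 bp to 999 bp downstream. The replicates thus shared the peak farther downstream, and mark nearer the start was called in replicate 1 only. In replicate 1 the peak of 4.28 was close in level to the strongest one, of 4.35. In the pooled list the peak nearer the start was called too, at 2.91, against 2.71 for the one farther downstream. The −log10 q of the strongest peak was 5.41 in replicate 1 and 4.76 in replicate 2. With a window of 500 bp, or with peaks of −log10 q of at least 5 only, Ypel4 was not marked. Further weak peaks inside the gene had their maximum at 3.33 and 2.99 (3.16 ± 0.241). Its promoter had the fewest CpG dinucleotides of the 6 that were read.

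Across all 6 marked genes the run of peaks reached farther into the gene than upstream of it in both replicates, against 72.1% of all marked genes. The lopsided shape was therefore the usual one.

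Xpo7, a nuclear export receptor that erythroblasts of mice need to condense chromatin and expel the nucleus, had no peak within 1000 bp of its RefSeq 5' end in either replicate. RefSeq places the gene at chr14:70662126-70770864 on the minus strand (mm10), from 2 curated and 3 predicted transcripts. Inside it lay strong mark, with a maximum of 10.5 in replicate 1 and 11.1 in replicate 2 (10.8 ± 0.423), at percentile 72.5 of the 5457 genes with internal peaks of both replicates. The strongest peaks spanned 70766778 to 70767946 and 70766752 to 70767649, and each had a companion of 9.52 and 8.92 farther into the gene, at 70765445 to 70766335 and 70765429 to 70766583. The pair thus lay over about the same bases in both replicates, parted by a gap of 442 bp and 168 bp. Peaks parted by a gap were also seen at Btg2, Tspan33 and Fam210b, where the gap held the 5' end. The gap inside Xpo7 did not hold its RefSeq 5' end. In replicate 1, 3 weaker peaks of 4.09, 3.96 and 1.67 also lay inside the gene.

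The pair of strong peaks in Xpo7, and the weaker one of 4.09 in replicate 1, also overlapped the window of the 5' end of Dok2. Dok2, an adaptor protein of haematopoietic signalling, starts at 70765889 on the opposite strand, under the companion peak of both replicates and not in the gap. In RefSeq, the 5' ends of Xpo7 and Dok2 are 4975 bp apart, with the start of Dok2 inside Xpo7. In GENCODE M1 on mm9 they are 592 bp apart. The annotations therefore place the start of Xpo7 differently relative to its neighbour, and positions were not carried from one build to the other. In the older peak set on mm9, a single peak of 2767 bp, from 71165010 to 71167776, covered the M1 5' end of Xpo7 at 71166435, and with it the start of Dok2 at 71165843. Xpo7 was thus marked with the older list and M1 together and unmarked with the mm10 lists and RefSeq, and the parts of the list and of the annotation in this were not tested. The mark between these opposed starts cannot be assigned to either gene.

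Alox15, the lipoxygenase that takes part in the breakdown of mitochondria in reticulocytes, was the listed gene with the least mark. It had no peak within 1000 bp of its 5' end in either replicate. RefSeq places it at chr11:70344147-70390538 on the minus strand, a span of 46392 bp from 1 curated and 1 predicted transcript. Its strongest internal peaks, at different places in the replicates, had 3.20 in replicate 1 and 3.65 in replicate 2 (3.42 ± 0.319). That mean lay at percentile 9.66 of genes with internal peaks. In replicate 1 the peaks spanned 70373994 to 70374380 and 70374602 to 70374816. In replicate 2 peaks of 2.69 and 3.58 spanned 70374211 to 70374355 and 70374587 to 70374844, and the highest, at 70381425 to 70381717, had no partner in replicate 1. No peak of either replicate lay within 29847 bp of the 3' end of the gene, whereas in GENCODE M1 on mm9 the whole of Alox15 spans 7880 bp. Whether these weak peaks lie inside the shorter M1 gene was not tested, since positions were not carried between the builds. The older mm9 set had no peak at the gene or at its 5' end.

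**Figure D2:**
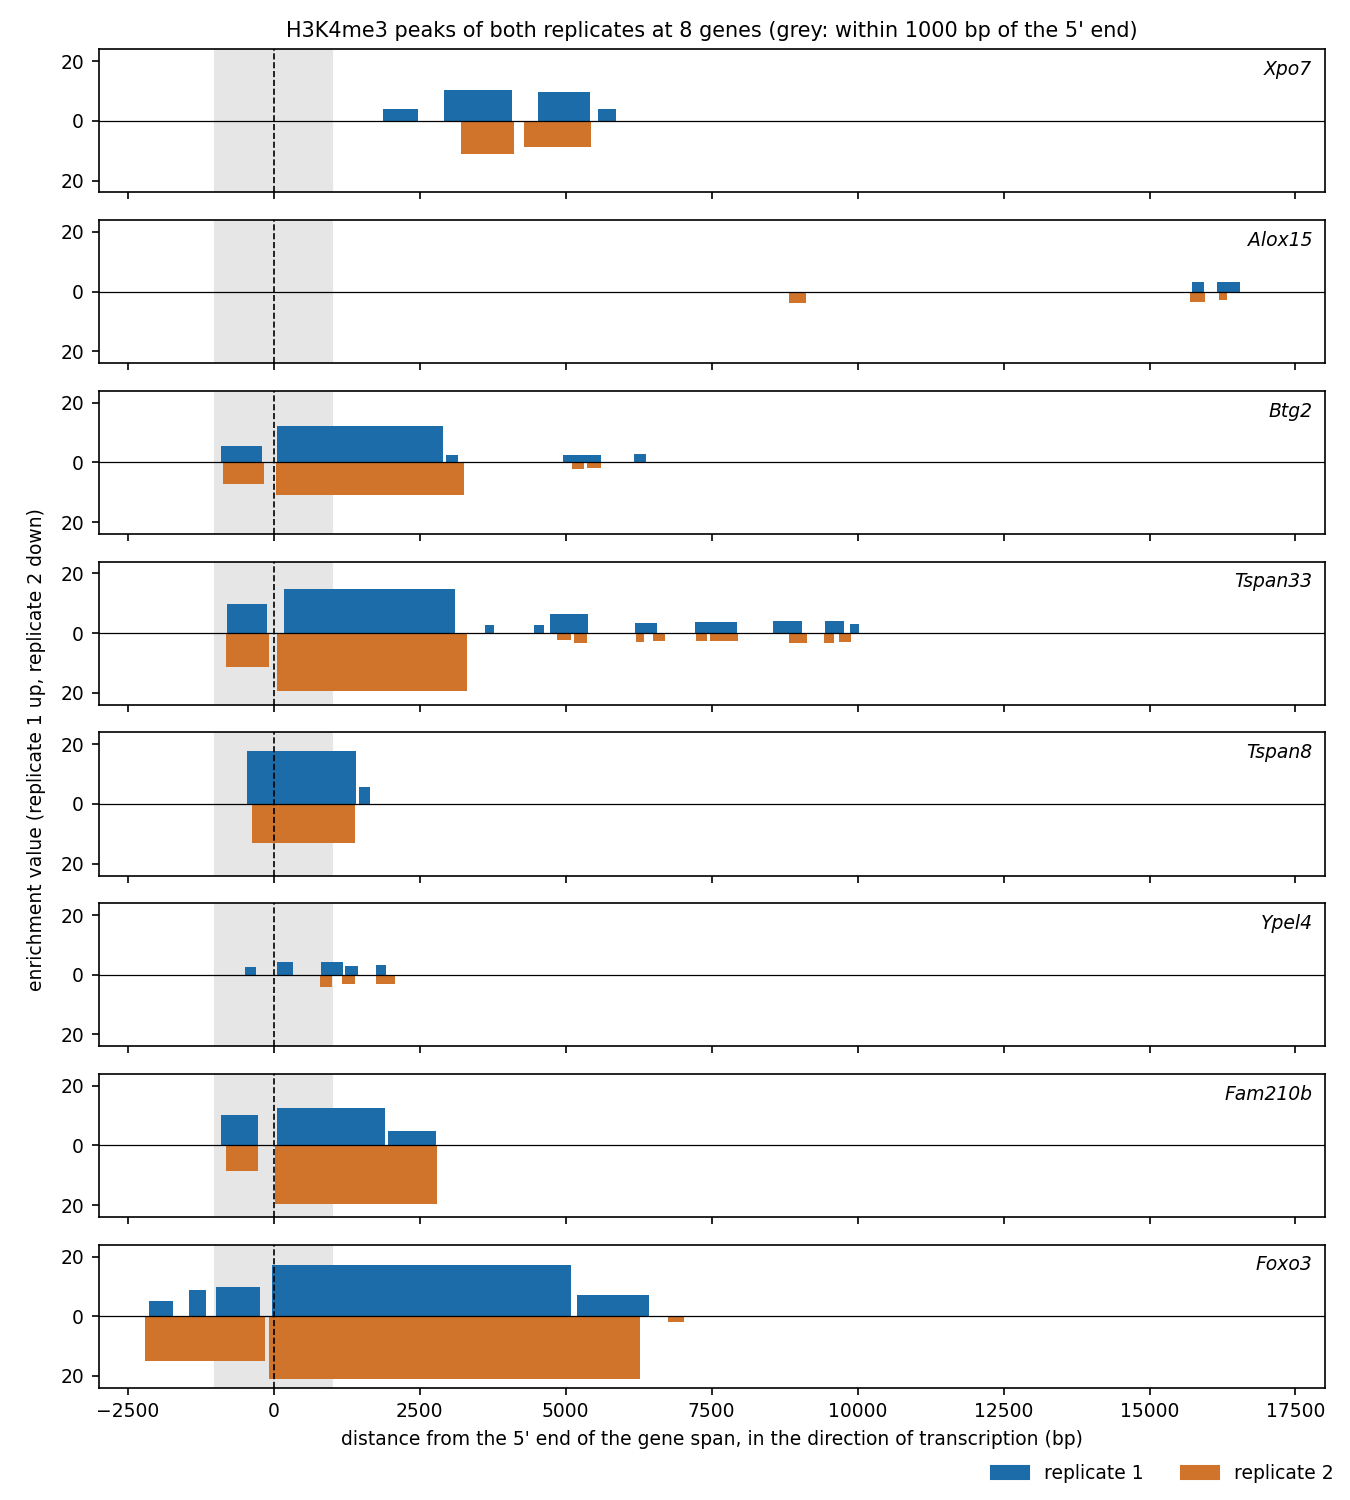
Peaks of replicate 1 (blue, upward) and replicate 2 (orange, downward) at the 8 genes, by distance from the 5' end of the RefSeq gene span in the direction of transcription (x axis, bp) and by enrichment value (y axis, no unit). The grey band is the window of 1000 bp on either side of the 5' end, and peaks beyond the gene's other end, as in Btg2, were not counted. It is empty in Xpo7 and Alox15, filled by tall blocks in Btg2, Tspan33, Tspan8, Fam210b and Foxo3, and holds only low blocks in Ypel4. Peaks farther than the axis, such as the second cluster of Foxo3 at 27467 bp and beyond, are not drawn.

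Strongest internal peaks of the 5 listed genes that had them in both replicates had a median of 4.86 (6.42 in replicate 1 and 3.65 in replicate 2), against 6.82 (6.68 and 6.77) over all 5457 genes with such peaks. Xpo7 alone stood above that median. The strongest peak was taken in each replicate on its own, so the peaks can lie at different places, as at Foxo3, Tspan33 and Alox15. Against the 2106 genes with internal peaks only, whose median was 7.89, Xpo7 lay above and Alox15 below.

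The relatives of each listed gene were described in the same way, and their counts stand against the 47.1% of all genes that were marked. Of 7 other exportins 5 were marked. Xpot, the exporter of tRNA, led with 21.5 and 19.8, followed by Xpo6 (18.9 and 15.2), Xpo5 (10.9 and 13.0), Cse1l (11.0 and 12.1) and Xpo1 (9.77 and 12.9). Xpo4 shared the pattern of Xpo7, unmarked at the 5' end with a peak of 19.4 and 21.5 inside the gene, while Ranbp17, the closest relative of Xpo7, had no peak at all. Of 6 other lipoxygenases 2 were marked, namely Alox5 (6.99 and 5.87) and Aloxe3 (13.4 and 14.0). Alox8, Alox12, Alox12b and Alox12e had no peak of both replicates at the 5' end or inside the gene. With Alox15 counted, 2 of the 7 lipoxygenases were marked, against 47.1% of all genes.

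In the BTG/TOB family 4 of 5 others were marked, with 14.1 and 24.5 at Btg3, 14.7 and 15.4 at Btg1, 17.8 and 11.1 at Tob2, and 12.6 and 11.5 at Tob1. Btg4 was unmarked. Both values of Btg1 and of Btg3 lay above both values of Btg2 (12.3 and 10.8), while those of Tob1 and Tob2 overlapped them. Among 29 other tetraspanins, 17 were marked, with a median level of 13.5 against 13.2 over all marked genes. Tspan33 followed in mean level after Tspan13 (20.0 ± 3.81) and Cd81 (17.5 ± 3.61) and within their spread. Cd63 was the lowest of the marked ones, at 4.88 ± 1.22.

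All 4 other Yippee-like genes were marked, and all stood higher than Ypel4 in both replicates. Ypel1 had 16.9 and 18.7, Ypel5 17.4 and 16.0, Ypel2 14.2 and 16.4, and Ypel3 6.81 and 13.6, against 4.35 and 4.12 at Ypel4. Fam210a, the only relative of Fam210b, had 15.4 and 15.1, inside the range of Fam210b. Among the FOXO genes, Foxo3 had the highest mean level, above Foxo4 (16.6 and 13.6), Foxo1 (13.5 and 15.4) and Foxo6 (4.77 and 8.88), and both its values exceeded every value of the others. Its domain of 8900 bp exceeded those of Foxo1 (3515 bp), Foxo4 (2270 bp) and Foxo6 (1700 bp).

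**Figure D3:**
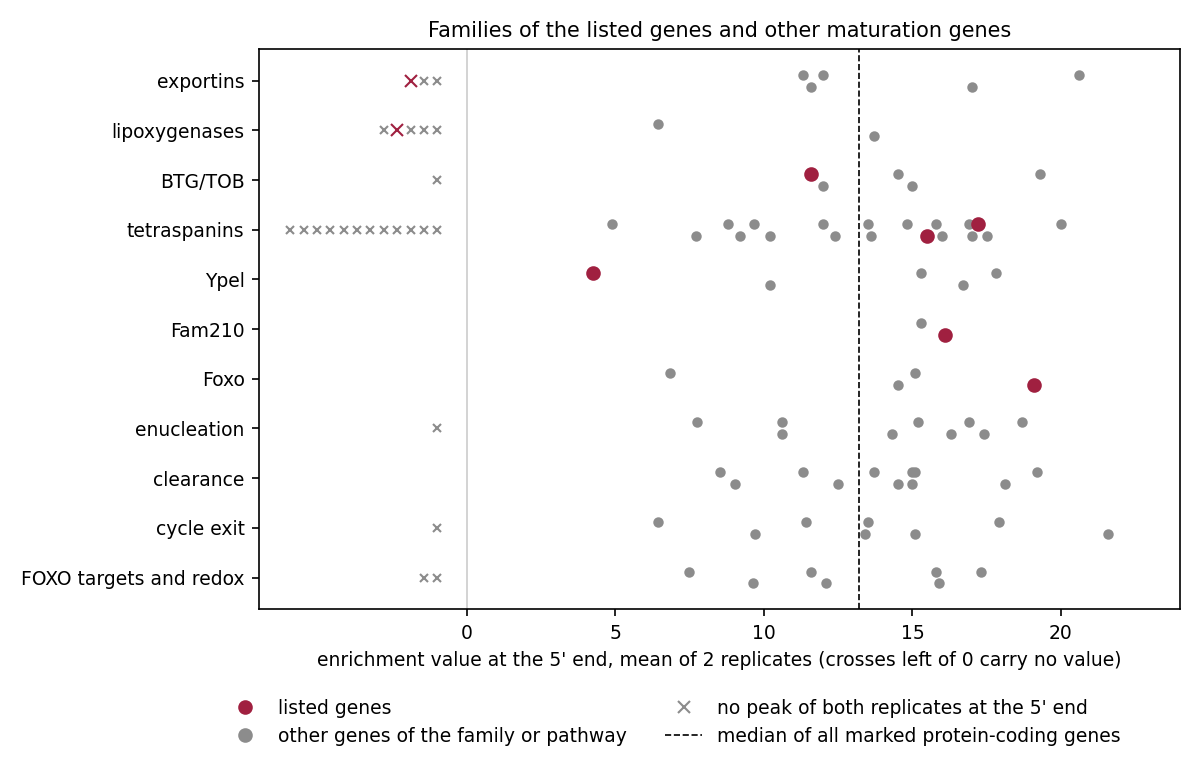
Mean enrichment value at the 5' end over 2 replicates (x axis, no unit) of the listed genes (red) and of the other genes of their families and of 4 pathway lists (grey), 1 row per list. Crosses left of 0 are genes without a peak of both replicates at the 5' end, and the dashed line is the median of all marked protein-coding genes, 13.2. Ypel4 lies left of its whole family and Foxo3 right of its own.

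Other genes of red cell maturation were taken from 4 lists of pathways in which the listed genes act, and 35 of their 39 genes were marked, against 47.1% of all genes. Their median level was 14.3 and their median width 2988 bp, against 13.2 and 2258 bp over all marked genes. The lists were drawn up with earlier results of these data known, so nothing was read from their counts beyond these values. Among genes of enucleation and nuclear condensation 9 of 10 were marked, the GTPase gene Rac2 being the lowest of them (7.74 ± 0.460). Wdr26, part of a ubiquitin ligase that acts in erythroblast condensation, was the unmarked one and carried 15.5 and 18.7 inside the gene, as Xpo7 did. All 11 genes of organelle and protein clearance were marked, from the autophagy gene Atg5 (19.2 ± 4.49) to the autophagy kinase gene Ulk1 (8.51 ± 3.70), whereas Alox15, which acts in the same process, was unmarked.

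Of 9 genes of cell cycle exit 8 were marked, from the inhibitor gene Cdkn1b (21.6 ± 8.82) to the cyclin gene Ccnd3 (6.43 ± 0.677). The inhibitor gene Cdkn1a was unmarked at its RefSeq 5' end and carried 7.97 and 19.3 inside the gene. Of 9 genes of redox defence and FOXO targets 7 were marked, from Sesn1, which encodes a stress-induced sestrin (17.3 ± 2.50), to Txnip, an inhibitor of thioredoxin (7.47 ± 5.54). Bcl6 had no peak, and Pik3ip1, an inhibitor of PI3 kinase, was unmarked with 11.4 and 11.4 inside the gene. An unmarked RefSeq 5' end with strong mark inside the span was thus seen in Wdr26, Cdkn1a, Pik3ip1 and Xpo4 as well as in Xpo7. The pattern was therefore not peculiar to Xpo7. The 5' end used is the outer edge of the RefSeq span, so mark at a start farther inside the span counts as internal. Whether these genes have a marked start there was not tested.

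The nearest pattern to each marked gene was sought among all marked genes, by distance in log2 level and log2 width of both replicates, each scaled to an SD of 1. Rab5c, a GTPase of early endosomes, lay nearest to Btg2 at a distance of 0.130, Tmem128 to Tspan8 at 0.137, and Tbcc, a tubulin cofactor, to Fam210b at 0.169. Usp15, a deubiquitinase, lay nearest to Foxo3 at 0.411 with 15.4 and 20.2 over 8128 bp and 8004 bp. The nearest to Ypel4 and Tspan33 were farther off, namely Bhmg1 at 0.888 and Clcn3, a chloride transporter, at 1.045. The patterns of Btg2, Tspan8 and Fam210b were therefore closely matched by other genes, while those of Foxo3, Ypel4 and Tspan33 lay farther from that of any other gene. The distance also counts differences between replicates, which in width were large at Tspan33 (10814 bp and 4120 bp) and Ypel4 (2420 bp and 1288 bp). Their part in these distances was not tested.

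The mark was also read at genes that define cell types. Erythroid genes were marked in 7 of 8 cases, with Klf1 at 20.7 and 21.3 and Alas2 at 20.9 and 15.0, and Gata1 carried 21.1 and 15.0 inside the gene only. Slc4a1, which encodes band 3, had 3.97 and 4.51, as low as Ypel4. Of 5 genes of granulocytes and macrophages 1 was marked (Cebpa, 6.52 and 11.9), none of 2 T cell genes and none of 2 B cell genes was, and both megakaryocyte genes were (Pf4 and Itga2b), against 47.1% of all genes. Inside the gene only, the T cell gene Cd3d carried 9.05 and 9.82. Spi1, a myeloid factor that MEL cells are known for, was not marked and carried 9.25 and 8.47 inside the gene. It had a peak at the 5' end in replicate 2 only, at 3.56. The replicates' sets held 48026 and 46950 peaks, with median enrichment values of 5.51 and 5.31.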

How the data were processed

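H3K4me3 was profiled by ChIP-seq in 2 biological replicates of MEL cells given 2% DMSO for 5 days, with fragments of 150 to 350 bp per the labels. The authors deposited peak lists on mm10, for each replicate, for the pooled alignments and for replicated peaks, and an older list on mm9. Each replicate's list was derived from its own alignments, per the file headers and the deposited notes. What aligned the reads, what called the peaks, at which threshold, and what made a peak replicated are not given in the sources used here. Every peak in the deposited lists has an enrichment value, a score whose scale the authors do not state, and p-values and q-values that the authors gave as −log10. No read counts were given, so the depth is unknown, and precision rests on the 2 replicates (mean ± SD). The mean of the replicates takes their enrichment values to be on the same scale. In the older list the values run on another scale and were not set beside the others.

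From these lists, a gene was called marked when a peak of each replicate overlapped, by at least 1 bp, the 1000 bp on either side of its 5' end. Gene spans came from RefSeq GRCm38.p6, where a gene has 1 span that can take in predicted transcripts. Strands came from the RefSeq promoter table for 17492 genes and from GENCODE M1 names for 3649 by symbol and 395 by synonym, and 351 genes without a strand were left out. The promoter table held 6 of the 8 listed genes. A percentile is the place of a gene among the marked genes, unless another set is named beside it. The members and lists were chosen with earlier results of these data known, so no test was run, and counts and medians stand beside those of all genes. Named are the listed genes, the measured genes of families of up to 8 genes, the 3 highest and the lowest marked tetraspanins, the highest, the lowest and all unmarked genes of each pathway list, neighbours that share a peak, and the nearest pattern to each marked gene, except that 1 gene so chosen and 2 promoter sequences are not reported here. Genes named as cell type markers were chosen as examples after their values were seen. Calls, levels and widths were tested on simulated data, where a width larger than the simulated one also passed. Other windows, gaps, overlaps, thresholds, peak lists, 5' ends and levels and each replicate alone were tried. Python 3.11.15 was used.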

Additional observations from a re-analysis of the deposited data

How the results depend on the processing

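No paired analysis was possible because the series holds 1 group. The count of listed genes marked at the 5' end was 6. It was 5 with a window of 500 bp, with −log10 q of at least 5 or with the 20000 strongest peaks of each replicate. Strongest in that setting means highest in −log10 p, not in enrichment value. Ypel4 passed none of these settings. On the older mm9 list with M1 5' ends the count was 6, with Xpo7 in place of Ypel4. Listed genes with internal peaks numbered 5, but 1 with the 20000 strongest peaks (Xpo7), 0 on mm9, and 5 to 8 with either replicate alone. They numbered 4 with a window of 2000 bp or with −log10 q of at least 5, and 6 in the pooled and in the replicated list. Over all genes these internal calls numbered 5457, but 2352 with the 20000 strongest peaks and 1865 on mm9. With every 5' end that the RefSeq promoter table lists for a gene, 4858 genes had internal calls. Genes marked at a 5' end then numbered 10654, against 10133. The listed genes' median level of 15.8 became 10.5 when an overlap of 50% was asked for, and 13.7 to 16.4 with either replicate alone. Their median width of 3872 bp became 4097 bp with a window of 500 bp, 3804 bp and 3961 bp with −log10 q of at least 2 and 5, 3484 bp with the 20000 strongest peaks, 2668 bp and 5259 bp with joined gaps of 0 and 3000 bp, 3896 bp in both the pooled and the replicated list, and 4095 bp on mm9. Asking for an overlap of 50% left out peaks that run far beyond the window, as at Btg2, Tspan33 and Fam210b, whose levels became 6.41, 10.4 and 10.5. With no gap joined, Ypel4 measured 292 bp and Foxo3 5740 bp. The number of reads is unknown, so weak peaks such as those of Ypel4 and Alox15 cannot be weighed against depth.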
